A study of Mus musculus with 8 samples.

Results

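Small nucleolar RNAs (snoRNAs) of box C/D and of box H/ACA were followed in RAW264.7 cells, a mouse macrophage line, during the first 120 min with lipopolysaccharide (LPS), a component of the bacterial cell wall. The set was chosen by name and level. It holds every row of the count table whose gene symbol starts with Snord (box C/D) or Snora (box H/ACA) and whose mean normalized count over the 8 libraries was at least 10. This rule kept 62 of 23143 rows, 34 of box C/D and 28 of box H/ACA, out of 87 snoRNA rows in all (54 and 33). A normalized count is the deposited read count divided by the size factor of the library, which is the median ratio of its genes to their geometric means over all libraries. Because the mean chose the members, the mean levels below are a description.

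snoRNAs are short, stable noncoding RNAs that work in the nucleolus as the guide part of ribonucleoprotein particles (snoRNPs). Box C/D snoRNAs carry a C box near the 5′ end and a D box near the 3′ end, bind fibrillarin, and direct 2′-O-methylation of ribosomal RNA at the site that pairs with the bases in front of the D box. Box H/ACA snoRNAs fold into hairpins, end in an ACA box, bind dyskerin, and direct the conversion of uridine to pseudouridine. A few members of either class serve cleavage of the ribosomal RNA precursor instead of modification. Most vertebrate snoRNAs are cut out of introns of host genes, many of which encode ribosomal proteins or make noncoding transcripts of the Snhg family.

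RNA was sequenced from 1 untreated culture (0 min) and from 7 cultures that had received LPS at 100 ng/ml for between 15 and 120 min (every 15 min up to 90 min, then 120 min), with 1 library per time point. No difference between time points therefore has a replicate check, no test with replicates was possible, and every interval of a ratio below covers counting error only. An exact negative binomial test, with a dispersion taken over all 8 libraries in place of replicates, was used as an alternative. The labels call the RNA total in one field and cytoplasmic in another, whereas the methods describe total RNA after removal of ribosomal RNA. The counts of a library summed to between 100250892 and 159077286, and a count of 0 allows a true value of up to 3 counts. Reads on the rRNA precursor Rn45s made up between 8.18% and 9.11% of all reads in the libraries of 0, 30, 60 and 120 min, whereas the share was 12.96% for 15 min, 16.6% for 45 min, 20.5% for 75 min and 15.8% for 90 min. These 2 interleaved sets of 4 libraries are set apart here by their Rn45s share alone and are not groups of the study. The labels name no batch, and the source of the difference was not tested. The macrophage markers Csf1r, Emr1, Cd68, Lyz2, Itgam, Cd14 and Ptprc were all detected in each library at 6916 normalized counts or more, while the T cell marker Cd3e stayed at or below 1.62 and the epithelial and fibroblast markers Epcam and Col1a1 were at 0 in each. In bulk RNA, fewer cells that make an RNA and less of that RNA per cell cannot be told apart.

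The sequences of 9 members that the results turn on are shown on the RNA strand from 5′ to 3′, with the boxes of their own class that were found in capitals. They are the most abundant box C/D pair (Snord15a and Snord15b), the abundant member with the lowest 45 min ratio (Snord17), one of the Rpl13a snoRNAs (Snord33), a nearly identical pair (Snord14c and Snord14d), and 3 box H/ACA members, of which Snora43 was the most abundant, Snora21 was high at 60 and 120 min and Snora3 did not dip. Coordinates are RefSeq positions on GRCm38, and the letters come from GENCODE vM21 transcripts at those positions.
Snord15a: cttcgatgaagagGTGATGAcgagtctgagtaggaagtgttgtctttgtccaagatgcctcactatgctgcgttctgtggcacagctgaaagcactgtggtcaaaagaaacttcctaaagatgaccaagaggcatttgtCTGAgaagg
Snord15b: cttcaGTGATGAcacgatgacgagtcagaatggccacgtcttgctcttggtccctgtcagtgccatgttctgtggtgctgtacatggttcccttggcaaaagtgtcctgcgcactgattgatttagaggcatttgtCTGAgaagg
Snord17: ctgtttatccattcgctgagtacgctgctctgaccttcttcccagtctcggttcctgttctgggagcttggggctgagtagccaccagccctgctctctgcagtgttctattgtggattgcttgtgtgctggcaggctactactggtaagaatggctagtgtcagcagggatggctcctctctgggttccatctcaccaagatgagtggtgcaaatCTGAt
Snord33: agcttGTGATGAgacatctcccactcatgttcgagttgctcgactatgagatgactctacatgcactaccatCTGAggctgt
Snord14c: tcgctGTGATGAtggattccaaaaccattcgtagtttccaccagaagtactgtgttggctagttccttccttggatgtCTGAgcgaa
Snord14d: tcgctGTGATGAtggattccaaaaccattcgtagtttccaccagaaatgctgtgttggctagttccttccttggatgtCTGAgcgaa
Snora43: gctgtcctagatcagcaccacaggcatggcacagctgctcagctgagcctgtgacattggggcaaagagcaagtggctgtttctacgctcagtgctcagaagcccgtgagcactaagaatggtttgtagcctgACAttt
Snora21: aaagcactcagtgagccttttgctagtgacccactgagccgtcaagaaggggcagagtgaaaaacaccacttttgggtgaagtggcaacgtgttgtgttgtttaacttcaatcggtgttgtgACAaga
Snora3: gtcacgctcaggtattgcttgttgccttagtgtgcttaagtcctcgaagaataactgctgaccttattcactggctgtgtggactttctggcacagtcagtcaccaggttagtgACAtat
Snord15a lies at chr7:99482785-99482932 and Snord15b at chr7:99479563-99479707, both on the minus strand inside Rps3. Snord17 lies at chr2:144265982-144266202 (minus strand, inside Snx5), Snord33 at chr7:45126864-45126945 (minus strand, inside Rpl13a), and Snord14c and Snord14d at chr9:40803583-40803669 and chr9:40803995-40804081 (plus strand, inside Hspa8). Snora43 lies at chr2:26637847-26637985 (minus strand, inside Snhg7), Snora21 at chr11:97781639-97781766 (minus strand, inside Rpl23) and Snora3 at chr7:109520132-109520251 (plus strand, inside Rpl27a).

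The D box CTGA was found in the last 15 bases of all 31 box C/D members with a sequence, against 2 of 27 box H/ACA members (Snora17 and Snora43). The C box, searched strictly as ATGATGA or GTGATGA within the first 20 bases, was found in 13 of the 31 and in 0 of the 27. The trinucleotide ACA was found in the last 6 bases of 25 of 27 box H/ACA members (not in Snora44 and Snora81) and in 0 of the 31. Boxes were searched on the RNA strand only. Snord14c and Snord14d differ in 2 of 87 bases (G47A and A49G, the Snord14c base first, counted from its 5′ end), and all 30 windows of the read length of 58 in either one match the other within 2 mismatches, although 0 windows match exactly. No other member with a sequence shared such a window with another snoRNA row.

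Length limits where a read can start on a snoRNA. Box C/D members had a median length of 79.5 bases and box H/ACA members of 122, and a read of 58 bases can start at only 22.5 and 65 positions of them in the median. The 25 rows under the minimum (20 of box C/D, 5 of box H/ACA) had a median length of 66 bases. Of these, 16 were shorter than 70 bases, as were 11 of the 62 members. Per start position, the rows under the minimum had a median of 0.340 normalized counts, against 5.57 for the members. The part of length in their low counts was not tested. Just inside the minimum lay Snord14a with a mean of 13.04 normalized counts and Snord87 with 15.4, and just outside lay Snord88c with 9.18 and Snora75 with 7.50. Snora35, a brain snoRNA from an intron of the serotonin receptor gene Htr2c, was listed at 0 in all 8 libraries.

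Per read start position, a few members stood far above the others. The median was 6.11 normalized counts per start position for box C/D and 4.20 for box H/ACA. Snord15b and Snord15a (U15 RNAs, guides of 28S ribosomal RNA methylation) reached 213 and 166 on this scale, followed by Snora61 with 89.4, Snord47 with 81.2, Snord22 with 79.6 and Snora43 with 52.1. Snora61 has only 62 bases in RefSeq, so its value rests on few start positions. Together Snord15a and Snord15b supplied between 60.3% and 67.6% of the box C/D counts of each library, and the sum of box C/D counts is therefore mostly these 2 RNAs.

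The summed counts of both classes dipped at 15 and at 45 min and fell again, less far, between 60 and 75 min. The summed normalized count of box C/D was 65142 at 0 min, 40526 at 15, 53289 at 30, 29526 at 45, 64154 at 60, 50909 at 75, 53976 at 90 and 61774 at 120 min. The summed normalized count of box H/ACA was 25125 at 0 min, 16340.5 at 15, 23507 at 30, 13862 at 45, 31102 at 60, 21787 at 75, 23416 at 90 and 27228 at 120 min. Both classes were lowest at 45 min and next lowest at 15 min, box C/D was highest at 0 min and box H/ACA at 60 min. At 45 min the summed count was 0.453 of that at 0 min for box C/D (95% counting interval 0.447 to 0.460) and 0.552 for box H/ACA (0.540 to 0.563). At 60 min it was 2.17 (2.14 to 2.20) and 2.24 (2.20 to 2.29) times that at 45 min. Without Snord15a and Snord15b the box C/D ratio at 45 min was 0.459 (0.449 to 0.471).

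**Figure D1:**
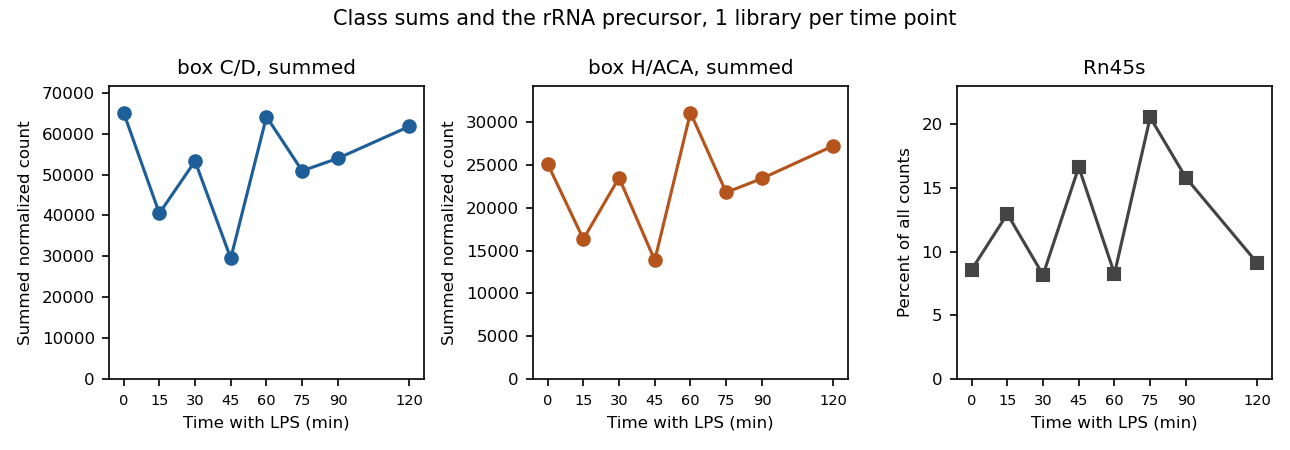
Summed normalized counts of the 34 box C/D and 28 box H/ACA members (left and middle, y axis from 0) and the share of all counts on Rn45s in percent (right) by time with LPS in min, 1 point per library. Both classes are lowest at 45 min, whereas the Rn45s share is highest at 75 min.

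Counted member by member, a gene was taken as higher or lower where the log2 ratio of its normalized counts passed 0.5 in size and the exact conditional binomial 95% interval of the ratio left out 1. At 45 min, 41 of 62 members were lower than at 0 min, 20 of 34 in box C/D and 21 of 28 in box H/ACA, where 4.50% of all 12166 genes with a mean of at least 10 were. Only Snord82 and Snora41 were higher at 45 min (background 9.00%), a pair named after their values were seen. At 15 min, 27 members were lower, 10 of box C/D and 17 of box H/ACA (background 0.855%), and 1, Snord23, was higher (1.27%). The median ratio to 0 min at 45 min was 0.588 for box C/D and 0.619 for box H/ACA, against 0.998 for all genes, and at 15 min it was 0.757 and 0.682, against 1.02. At 30 min, 4 members were higher (background 2.91%) and 2 lower (1.32%).

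The later libraries did not stay low. At 60 min, 8 members were higher than at 0 min, 2 of box C/D and 6 of box H/ACA (background 7.68%), and 2, Snord1b and Snord1c, were lower (6.48%). At 75 min, 0 members were higher (background 11.2%) and 11 lower (9.72%). At 90 min, 5 were higher (12.7%) and 6 lower (11.0%). At 120 min, 12 members were higher, 5 of box C/D and 7 of box H/ACA (background 15.8%), and 1, Snora61, was lower (14.8%). As shares of the members, 12.9% were higher at 60 min (21.4% in box H/ACA) and 8.06% at 90 min, and 17.7% were lower at 75 min. At 120 min 19.4% were higher and 1.61% lower. The counts at 60 and 90 min are few and near the shares of all genes, and the share of higher members at 120 min is near that of all genes too. With the exact negative binomial test described at the end, 0 members were higher at 60 min, where 4.24% of all genes were. At 120 min 1 member was higher with that test, where 9.47% of all genes were. From 60 to 75 min the normalized count went down in 57 of 62 members, with a median ratio of 0.765. Over all genes it went down in 6040 of 12166, with a median ratio of 1.001. Total counts in place of size factors shift the log2 ratio of every gene to 0 min by up to -0.33 (75 min) and by -0.20 at 120 min, and on that scale 3 members were higher and 3 lower at 120 min.

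**Figure D2:**
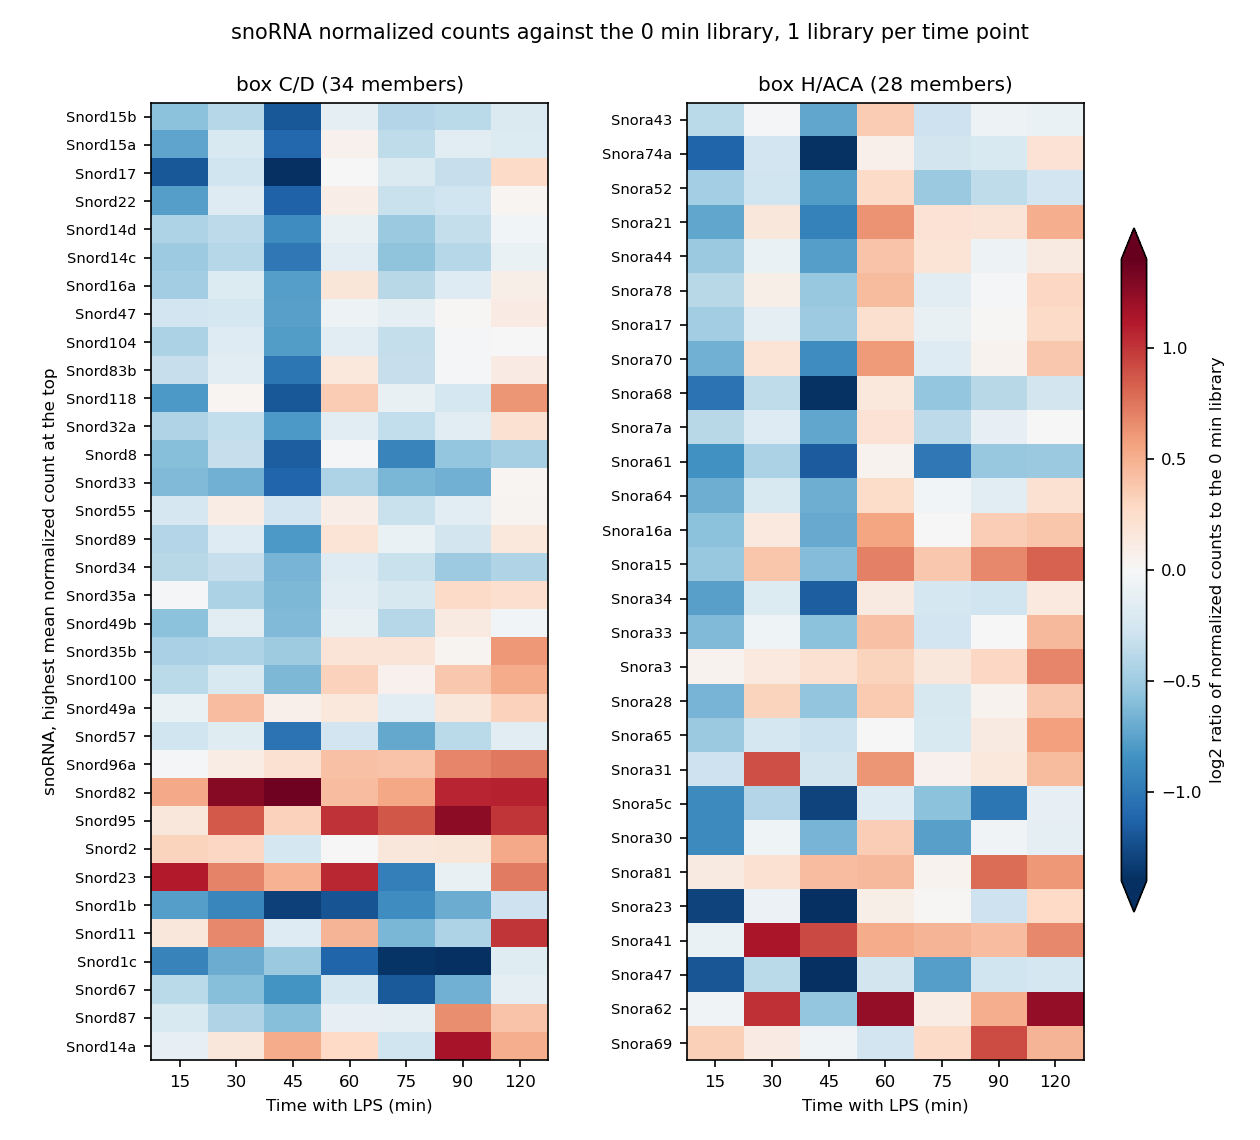
Each row is one snoRNA, each column a time with LPS in min, and the colour is the log2 ratio of normalized counts to the 0 min library (blue lower, red higher). The columns at 15 and 45 min are blue for most abundant members at the top of either class, and the weakest members at the bottom are mixed.

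The abundant box C/D members were low at the same times as the sum, most of which is Snord15b and Snord15a themselves. Snord15b had normalized counts of 24257 at 0 min, 16319.6 at 15, 18351 at 30, 10616 at 45, 22173 at 60, 18220.5 at 75, 18671 at 90 and 21034 at 120 min. Snord15a had 18459, 11076, 15947, 8605, 19218, 14409.9, 16717 and 16187 normalized counts at the same times. Both were lowest at 45 min and second lowest at 15 min, with ratios to 0 min at 45 min of 0.438 (0.428 to 0.448) and 0.466 (0.454 to 0.479). Snord17, from an intron of the sorting nexin gene Snx5, had 8270.0, 3645, 6828, 3034, 8301, 7196, 6607 and 9939 normalized counts. Its 45 min ratio of 0.367 (0.351 to 0.383) was the lowest of the box C/D members with a mean of at least 100, and it was highest at 120 min.

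Box C/D members that act in cleavage of the rRNA precursor dipped as the modification guides did. Snord22 (U22, needed for 18S ribosomal RNA processing and made from Snhg1) had 6616, 3886, 5838, 3021, 7041, 5312, 5468 and 6729 normalized counts, a ratio of 0.457 (0.437 to 0.477) at 45 min. Snord118 (U8, needed for 28S and 5.8S processing), at chr11:69073426-69073562, for which no host was found, had 392, 224, 400.4, 172, 501, 365, 330.1 and 601 normalized counts. Snord118 was lower at 45 min (0.438, 0.362 to 0.528) and higher at 120 min (1.53, 1.36 to 1.73), and in both RNAs the values at 15, 45, 75 and 90 min all lay below the other 4. The U14 copies Snord14c and Snord14d, which serve 18S processing and methylation, had 45 min ratios of 0.4996 (0.452 to 0.552) and 0.548 (0.498 to 0.602). The third copy, Snord14a from Rps13, was at the edge of detection with a 45 min ratio of 1.43 (0.602 to 3.43). Rows for U3, U13 and the U17 RNAs were not analysed here.

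The Rpl13a snoRNAs, known from work on lipotoxic and oxidative stress, dipped at 45 min without exception among 4. Snord32a, Snord33, Snord34 and Snord35a had 45 min ratios of 0.572 (0.475 to 0.686), 0.463 (0.376 to 0.567), 0.636 (0.479 to 0.838) and 0.645 (0.471 to 0.876). Snord33 had 315, 205, 198, 146, 234, 201, 197 and 320.1 normalized counts, so that its 0 and 120 min libraries lay above the 6 between them. At 120 min the ratios of the 4 ran from 0.749 (Snord34) to 1.18 (Snord35a), none of which met the call. The host mRNA itself, which encodes a protein of the large ribosomal subunit, had a ratio of 0.836 (0.830 to 0.843) at 45 min.

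The abundant box H/ACA members dipped at the same times. At 60 min all 20 with a mean of at least 100 lay above their 0 min value, as did 8 of the 18 box C/D members of that strength, a count made after the values were seen and without regard to the call. Snora43, the most abundant, had normalized counts of 4654, 3577, 4591, 2807, 5937, 3820.4, 4435 and 4375, in order of time. Snora68 (U68) had 1182, 577, 924, 454, 1309, 811, 903 and 988 normalized counts. Snora68 had the lowest 45 min ratio of the box H/ACA members with a mean of at least 100 (0.384, 0.343 to 0.429), next to Snora74a (U19) from Snhg4 with 0.384 (0.364 to 0.406). Snora21, a guide of 28S pseudouridylation from Rpl23, had 1821, 1099, 2027, 944, 2817, 2089.7, 2058 and 2595 normalized counts. It was lower at 45 min (0.518, 0.478 to 0.562) and higher at 60 min (1.55, 1.46 to 1.63) and at 120 min (1.42, 1.35 to 1.51). Snora15, from the chaperonin gene Cct6a, was higher at 60, 90 and 120 min (1.77, 1.53 to 2.05 at 120 min).

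A few members went against the dips. Snora3, from Rpl27a, had 149, 154, 164, 173, 184, 166, 182 and 239.9 normalized counts. It was the only box H/ACA member with a mean of at least 100 above its 0 min value at 45 min, with a ratio of 1.16 (0.928 to 1.45) that did not meet the call, and it was higher at 120 min (1.61, 1.33 to 1.95). Snord82, from the nucleolin gene Ncl, had 14.5, 20.9, 35.2, 37.3, 19.6, 21.1, 30.5 and 30.8 normalized counts, with its 30 and 45 min libraries the highest and a 45 min ratio of 2.56 (1.39 to 4.91). Snora41, from Eef1b2, was higher at 45 min with a ratio of 1.90 (1.18 to 3.08). Both calls rest on low counts. At the other end Snord1b, with a mean of 19.0, was lower at 30, 45 and 60 min (0.434, 0.221 to 0.812 at 60 min).

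**Figure D3:**
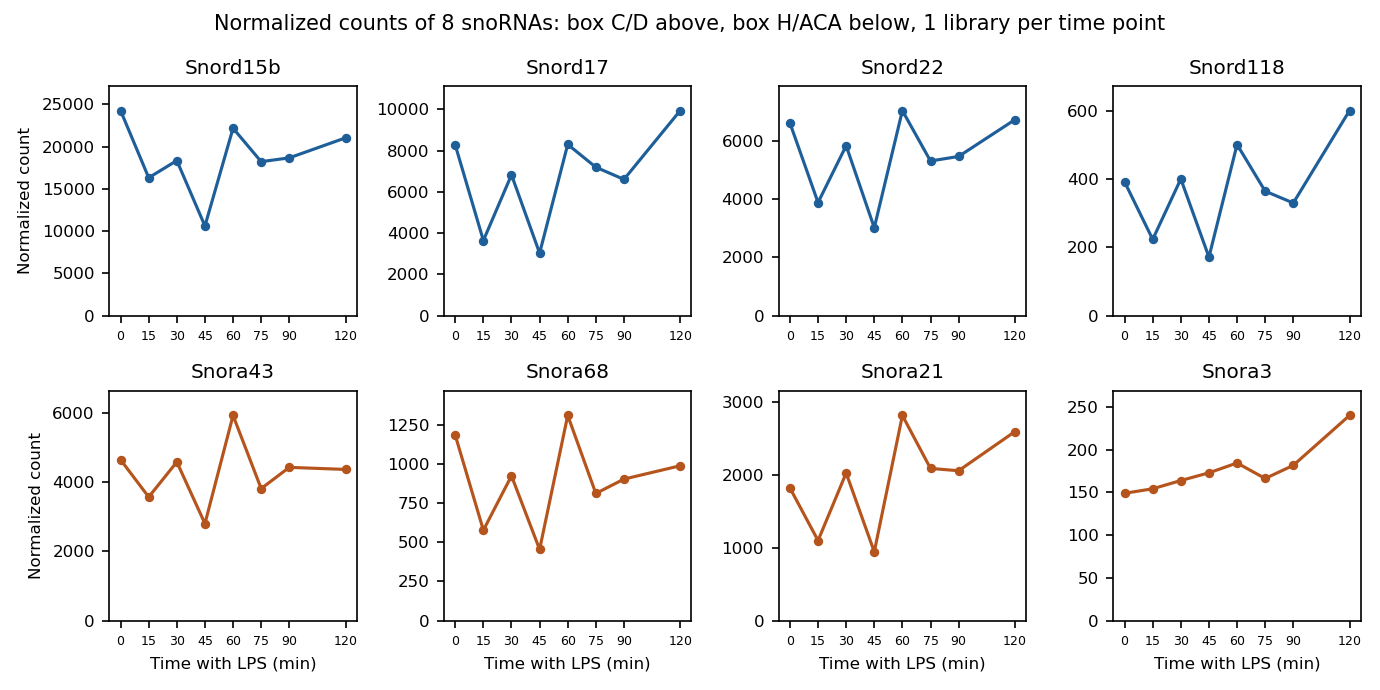
Normalized counts (y axes from 0) of 4 box C/D members (upper row) and 4 box H/ACA members (lower row) by time with LPS in min, 1 point per library. Of the 8, 7 are lowest at 45 min and second lowest at 15 min, and Snora3 shows no dip.

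Within libraries of like Rn45s share the order of the classes depended on the reference library. In the 6 comparisons with the first library of each set, 0 or 15 min, the box H/ACA medians lay above those of box C/D, and over all 12 pairs of times within the sets they did so in 8. Among 0, 30, 60 and 120 min, the median ratio to 0 min was 0.870 for box C/D and 0.957 for box H/ACA at 30 min, 1.001 and 1.25 at 60 min, and for 120 min the pair was 1.08 and 1.22. Among 15, 45, 75 and 90 min, the median ratio to 15 min was 0.772 and 0.869 for the 45 min library, 1.03 and 1.29 for the 75 min library, and 1.21 and 1.48 for the 90 min library. From 60 to 120 min box C/D had the higher median, 1.118 against 1.002, as it had from 30 to 120 min, 1.24 against 1.18. The median over all genes was between 0.992 and 1.008 in all 12. Scaling by total counts turned the box C/D median at 120 min to -0.085 on the log2 scale, from 0.12, and left that of box H/ACA at 0.084, from 0.29. The ratio of box C/D to box H/ACA counts within a library, which no size factor touches, was 2.59 at 0 min, 2.48 at 15, 2.27 at 30, 2.13 at 45, 2.06 at 60, 2.34 at 75, 2.31 at 90 and 2.27 at 120 min. It was highest in the 0 and 15 min libraries and lowest at 60 min, but the order rests in part on Snord15a and Snord15b. Without them the ratio was 0.893 at 0 min, 0.804 at 15, 0.808 at 30, 0.743 at 45, 0.732 at 60, 0.839 at 75, 0.794 at 90 and 0.902 at 120 min, so that 120 min was highest and 60 min still lowest. Members are not replicates of a class, and with 1 library per time point the difference between the classes was not tested.

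The low values moved in part with the 2 sets of libraries of like Rn45s share. In 45 of 62 members, 21 of box C/D and 24 of box H/ACA, the 15 min value lay below both 0 and 30 min and the 45 min value below both 30 and 60 min, as in 15.6% of all genes. This count was made after the values were seen. It uses the libraries from 0 to 60 min alone, so it restates the dips at 15 and 45 min. Relative to 15 min, 4 members were lower at 45 min (background 3.95%) and 2 higher (5.42%). At 75 min 10 were higher than at 15 min (8.01%) and 1 lower (9.38%), and at 90 min 21 were higher (9.72%) and 1 lower (11.4%). In 11 members, 5 of box C/D and 6 of box H/ACA, the 15, 45, 75 and 90 min libraries all lay below the other 4 (background 1.25%), and in 0 members all above (1.20%). With total counts, which also divide by the reads on Rn45s, 33 members lay all below, a count for which no share over all genes was computed. In 34 members, 14 of box C/D and 20 of box H/ACA, the 2 lowest of the 8 values were those at 15 and 45 min (7.06% of all genes), a pattern counted after the values were seen. The Rn45s share was highest at 75 min, where the median ratio of members to 0 min was 0.840. The part of Rn45s in these values was not tested.

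At 45 min the stronger and the longer members had the lower median ratios. Of the 12 members with a mean of at least 1000 normalized counts, 12 were lower at 45 min with a median ratio of 0.533, as were 22 of the 26 with a mean from 100 to 1000 (median 0.588). Of the 24 weaker members 7 were lower, with a median ratio of 0.702, and there the counting interval is wide enough to hide a ratio of that size. The median 45 min ratio was 0.649 in members of 58 to 69 bases and 0.580 in those of at least 120 bases. Their median means were 41.0 and 964 normalized counts, so length and strength were not separated. Within box H/ACA, members of 90 to 119 and of at least 120 bases had medians of 0.639 and 0.610 at 45 min. At 15 min these were 0.653 and 0.717, the other order. By host class the medians were 0.624 for 23 members inside ribosomal protein genes, 0.603 for 15 inside noncoding hosts and 0.649 for 22 inside other genes.

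Host genes were often lowest at the same times, with smaller differences. A host gene was found for 60 members (not for Snord118 and Snord89), and 57 of them had a host row that passed the minimum, with 44 different hosts. The median ratio of these hosts to 0 min was 0.932 at 15 min, 0.943 at 45, 1.05 at 60 and 1.09 at 120 min, and 47 of the 57 members lay below their host at 45 min and 26 at 120 min. Of the 44 hosts, 19 (43.2%) had their 2 lowest values at 15 and 45 min. The share was 41.2% in box C/D, 71.4% in box H/ACA and 7.06% over all genes, so hosts were often low there, by less. The hosts had a median transcript length of 1942 bases. Outside the gene lists, the pattern held in 13.8% of genes of 1000 to 2000 bases and 6.07% of those of 2000 to 4000. Their median ratios at 45 min were 0.910 and 0.978, and the host median of 0.943 lay between them. At 15 min the host median of 0.932 was below the medians of these length groups (0.946 for 1000 to 2000 bases). At 45 min 2 hosts were higher and 0 were lower than at 0 min (background 9.00% and 4.50%). Rps3, host of Snord15a and Snord15b, had a 45 min ratio of 0.830 (0.824 to 0.835).

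Members of one host could part from it and from each other. Snhg12 holds Snora16a, Snora44 and Snora61, all lower at 45 min with ratios of 0.615 (0.511 to 0.737), 0.585 (0.542 to 0.630) and 0.447 (0.385 to 0.516), while the Snhg12 transcript stood at 0.954 (0.876 to 1.04). At 120 min the Snhg12 transcript was higher at 1.802 (1.68 to 1.93), while Snora16a had a ratio of 1.31 (1.15 to 1.503), Snora44 of 1.09 (1.03 to 1.15) and Snora61 of 0.699 (0.624 to 0.781). The interval of Snora61 at 120 min overlaps neither of the others. Gas5, the host of Snord47, was also higher at 120 min (1.87, 1.83 to 1.91), where Snord47 had a ratio of 1.09 (0.989 to 1.19). Host counts come from reads aligned to RefSeq transcripts, so a host ratio is not a measure of its transcription. Of the 62 members, 58 have a GENCODE transcript that spans them, and 32 overlap an exon of such a transcript. Reads from such an exon cannot be told by sequence from reads of the snoRNA. The same holds in any member for reads of unspliced host RNA that lie within the snoRNA, and their share was not measured.

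**Figure D4:**
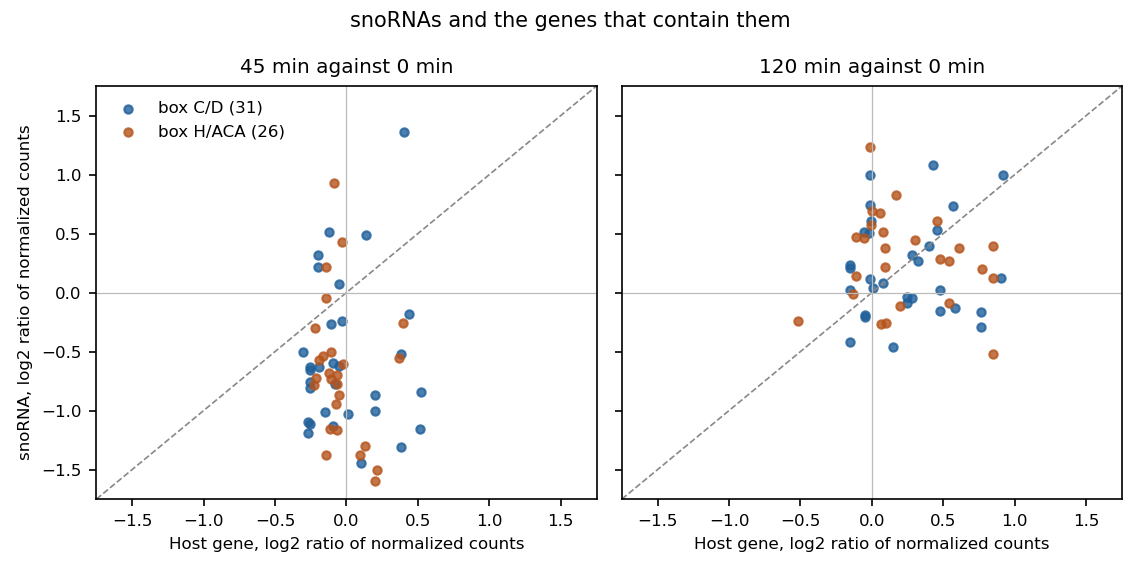
Each point is one of 57 snoRNAs, with the log2 ratio to 0 min of its host gene on the x axis and its own on the y axis, at 45 min (left) and 120 min (right), and the dashed line marks equal ratios. At 45 min 47 points lie below the line, and at 120 min 26 do.

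The mRNAs of snoRNP proteins changed little at 45 min, with a median ratio of 1.006 over 21 genes listed for core proteins and assembly factors. Fbl (fibrillarin, the methyltransferase) had normalized counts of 24683 before LPS and 26061 at 45 min, a ratio of 1.06 (1.04 to 1.07), and Dkc1 (dyskerin, the pseudouridine synthase) had 23214 and 24327, a ratio of 1.05 (1.03 to 1.07). Nop10, of the box H/ACA core, stood at 0.841 (0.817 to 0.866) at 15 min and 0.814 (0.789 to 0.840) at 45 min, and 4 of the 21 (19.05%) had their 2 lowest values at those times, against 7.06% of all genes. Of the 21, 0 were lower at 45 min (background 4.50%) and 1, listed with the assembly factors as Tgs1, was higher (1.55, 1.47 to 1.62, background 9.00%). Both counts were near those of all genes. At 120 min 4 of 21 were higher, also near the share of all genes (background 15.8%). These were Nop58 of the box C/D core (1.89, 1.87 to 1.91), Gar1 of the box H/ACA core (1.44), the H/ACA assembly factor Naf1 (1.82, 1.74 to 1.91) and Tgs1 (1.63, 1.55 to 1.70).

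Other small structured RNAs had the same low libraries. Of 8 snRNAs and other structured RNAs, 7 had their 2 lowest values at 15 and 45 min, as did 5 of 7 small Cajal body RNAs, which guide modification of spliceosomal RNAs. Rnu6 (U6 spliceosomal RNA) had 3120.0, 1610.1, 2944, 1372, 3889, 2053, 2450.3 and 3329 normalized counts, and Rmrp, the RNA of an endonuclease that acts on the rRNA precursor, had 1144375, 770595, 1169303, 706913, 1236191, 1110788, 1112872 and 1246547. Scarna13 stayed at 0.859 (0.837 to 0.880) of its 0 min value at 45 min. The microRNA precursor rows went another way, with 1 of 11 lowest at 15 and 45 min and a median 45 min ratio of 1.25. Snhg and Gas5 transcripts (1 of 11) and histone genes (1 of 60) had this pattern about as often as all genes or less. Histone genes were nevertheless low at 45 min, where 51 of 60 were lower with a median ratio of 0.603, as deep as the snoRNAs. Their course differed, with a median ratio of 0.947 at 15 min and 0.709 at 30 min.

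Among the genes outside these lists the share with their 2 lowest values at 15 and 45 min was highest in transcripts of 500 to 1000 bases and went down from there with length. Length here is that of the longest GENCODE transcript of a gene symbol, which need not be the RefSeq transcript that was counted. A length was at hand for 11375 of 12166 genes. It was 16.3% of 49 genes under 500 bases, 25.1% of 430 from 500 to 1000, 13.8% of 1925 from 1000 to 2000, 6.07% of 4678 from 2000 to 4000 and 2.01% of 4083 from 4000 bases on. The members, whose values were seen before the pattern was chosen, gave 41.2% for box C/D and 71.4% for box H/ACA. Long RNAs kept in the nucleus moved the other way at 45 min. Malat1 and Neat1 had their highest values there (490019 normalized counts against 247976 at 0 min, and 9097 against 5670.2), and Kcnq1ot1 stood at 14873, against 5155 at 0 min. Whether transcript length or the nuclear share of the RNA accounts for the dips was not tested.

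**Figure D5:**
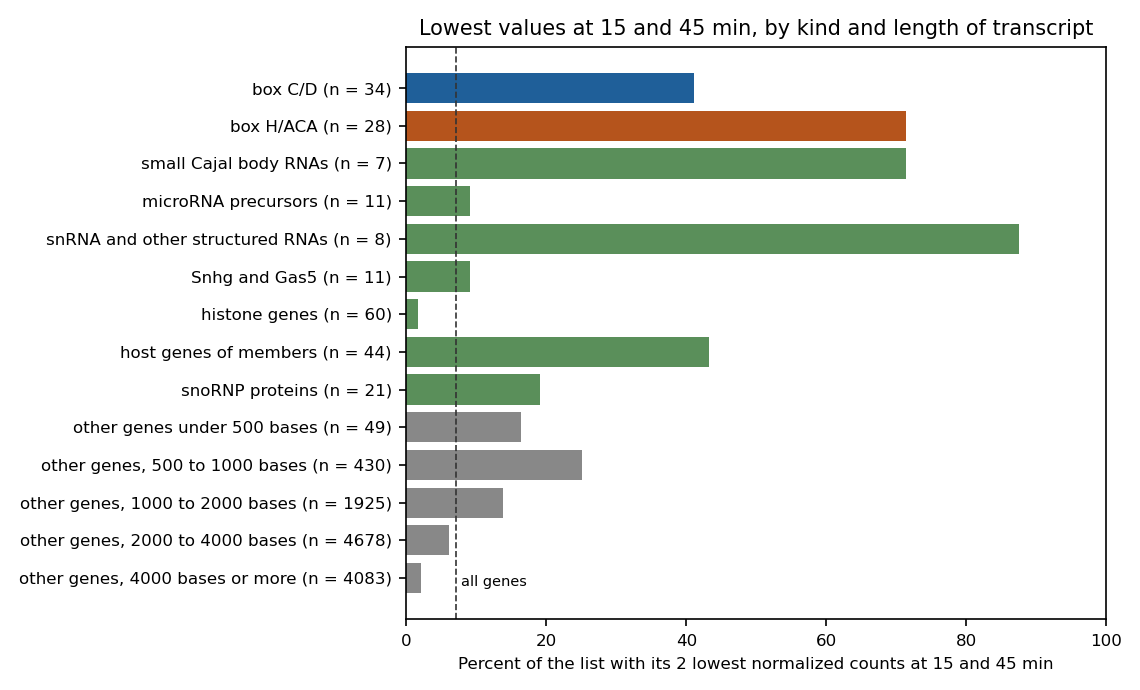
Bars give the percent of each list whose 2 lowest normalized counts were those at 15 and 45 min (x axis from 0 to 100), for both snoRNA classes, for other small RNAs, hosts and snoRNP proteins, and for the genes outside these lists by transcript length, with the 7.06% of all genes as a dashed line. The pattern was chosen after the values of the members were seen, so the bars of both classes (41.2% and 71.4%) are a description. The small Cajal body RNAs (71.4%), the structured RNAs (87.5%) and the host genes (43.2%) also lie to the right of the line.

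The genes most like the class sums across the 8 libraries were mostly mRNAs with much shallower dips, and 1 noncoding transcript with a dip of like depth. Over log2 normalized counts and outside snoRNAs, hosts and small RNAs, Pearson's r with the box C/D sum was 0.990 for Rpl37a, 0.981 for Ndufb2 and 0.981 for Ndufc2. With the box H/ACA sum it was 0.979 for the noncoding transcript 5730408K05Rik, 0.974 for Ndufb2 and 0.969 for Spcs2. Rpl37a, a ribosomal protein mRNA, had 81832 normalized counts at 0 min and 68701 at 45 min, whereas 5730408K05Rik had 4881 and 2828, against a 45 min ratio of 0.552 for the box H/ACA sum. The sums of both classes had an r of 0.962 with each other. The 8 points share their libraries and size factors, the box C/D sum is mostly Snord15a and Snord15b, and r is given as a description.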

How the data were processed

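The deposited table holds unnormalized counts of reads, summed by gene symbol, for 8 libraries. According to the methods, total RNA was depleted of ribosomal RNA (Ribo-Zero), libraries were made with a directional kit, and Bowtie aligned the reads, 58 bases long, to the RefSeq transcriptome of mm10. Alignments of the best stratum with up to 2 mismatches were kept, and reads that matched more than 1 gene symbol were discarded. Such reads are missing from the counts, and so are fragments shorter than a read or lost in library preparation. The submitters' processing notes name CASAVA 1.8.2 and DESeq 1.10.1, and the Bowtie version is not given in the sources used here. Spike-in transcripts were not used here.

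Size factors (median of ratios) and all ratios were computed with numpy 2.4.6, scipy 1.17.1 and pandas 2.3.3 under Python 3.11.15. With 1 library per time point there are no residual degrees of freedom, so ratios carry exact conditional binomial 95% intervals and a gene was called with a log2 ratio past 0.5 and an interval without 1. Background shares are over the genes whose mean normalized count reached 10. RefSeq coordinates (GRCm38) were matched by accession for all 87 rows, sequences were read from GENCODE vM21, and the host is the gene that contains the snoRNA.

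The members and gene lists were chosen with earlier results of these data known. Named members are the 5 most abundant of each class, the 5 with the largest rise and fall at 45 and 120 min among means of at least 100, snoRNAs of known role, rows next to the minimum, hosts of 3 or more members, snoRNP proteins, and the 3 genes most alike to each class. Others named were chosen after their values were seen. A marker and a host gene are not reported here. Alternatives used edgeR 4.0.16 and DESeq2 1.42.0 in R 4.3.3.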

Additional observations from a re-analysis of the deposited data

How the results depend on the processing

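The members lower at 45 min, 41 as reported, were 41 with TMM factors, 43 with total counts, 41 with total counts without Rn45s, 34 with a minimum of 100 (of 38 members), 42 with no minimum, 18 with a log2 limit of 1, and 26 with an exact negative binomial test of edgeR under a blind dispersion of DESeq2 (unadjusted p limit 0.05), where 1.89% of all genes were lower. With the 30 min library as the reference, an alternative chosen after seeing the data, they were 34. The negative binomial test left 0 members higher at 45 min, where 4.75% of all genes were. At 60 min it left 0 higher and 0 lower (4.24% and 2.92% of all genes). At 120 min it left 1 higher and 0 lower (9.47% and 8.35% of all genes). A log2 limit of 1 left 1 higher at 45 min, 3 higher at 60 min, and 2 higher and 0 lower at 120 min. A minimum of 100 left 0 higher at 45 min, 5 higher and 0 lower at 60 min, and 5 higher at 120 min. The 30 min reference gave 0 higher at 45 min, 3 higher at 60 min and 0 lower at 120 min. Total counts, with or without Rn45s, gave 3 higher and 3 lower at 120 min, against 12 and 1. Members with all of 15, 45, 75 and 90 min below the other libraries were 11 as reported, 33 with total counts, 19 with total counts without Rn45s, and 15 for 75 and 90 min alone (chosen after seeing the data). With total counts the median log2 ratio to 0 min of box C/D became -0.65 at 75 min, -0.42 at 90 min and -0.085 at 120 min. Those of box H/ACA became -0.88 for 45 min, -0.50 for 75 min, -0.26 for 90 min and 0.084 for 120 min. Without Rn45s in the total, the medians were -0.45 at 75 min and -0.077 at 120 min for box C/D, and -0.30 and 0.092 for box H/ACA. The other 79 of 90 medians stayed within the order-statistic interval of the reported one, which is taken over the members of the class. Members are not replicates, so this interval is only a yardstick for the size of a shift and no measure of error. No paired analysis was possible because each time point has 1 library, and leaving out a library leaves no value for its time point. Depth limits the 24 members with a mean under 100. Shares over all genes were computed only for the reported rule and for the negative binomial test.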
